A study of Mus musculus with 6 samples.

Results

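Ribosome biogenesis genes encode the proteins that transcribe, modify, cut and assemble ribosomal RNA in the nucleolus. The members described here were 40 named genes of this machinery, among them Npm1 and Npm3, which encode the nucleolar proteins nucleophosmin and nucleoplasmin 3. Each gene was found by its symbol in a table of 53445 loci, and the longest locus was taken for Bop1, the member symbol with more than one locus. The symbol Noc2l was not found in the table and is not analysed here. The remaining 39 members all passed the filter on low counts, which left 22032 loci tested, so no member was lost to it. Npm3 is the next gene after Oga on the same strand, and its rise in these same data prompted the choice of the members. Its place among them is therefore a description and not a test. The comparison addressed whether the level of Npm3 in cells without Oga differed alone or together with other nucleolar genes.

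The samples were Lin-Sca+Kit+ (LSK) bone marrow cells, a sorted population that contains the hematopoietic stem and multipotent progenitor cells. They came from female mice on the C57BL/6 background, 3 of them OgaVav-Cre and 3 wildtype, about 12 weeks old, with at least 20000 cells sorted from each. OgaVav-Cre mice carried a floxed Oga allele (Oga fl/fl) and the Vav-iCre transgene, which drives recombination throughout the hematopoietic lineage, so Oga was already deleted in the stem cells and in all blood cells made from them. Oga encodes O-GlcNAcase, the enzyme that removes O-linked N-acetylglucosamine from nuclear and cytosolic proteins. The controls are given as wildtype, and whether they carried Cre or the floxed allele is not given in the sources used here. Poly(A) RNA was sequenced as single-end reads and counted per locus on mm9.

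A growing cell spends much of its transcription on ribosomes. RNA polymerase I makes a long precursor from the ribosomal DNA, box C/D and box H/ACA small nucleolar ribonucleoproteins (snoRNPs) methylate and pseudouridylate it, the small subunit processome cuts out the 18S rRNA, and further assembly factors mature the 40S and 60S particles. Nucleophosmin and nucleolin are among the most abundant nucleolar proteins, and many genes of this group are known targets of MYC. In blood stem cells the output of this machinery is kept low at rest and is raised when the cells divide.

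The deleted gene checked the labels. Oga is listed under its older symbol Mgea5, and its minus-strand locus (chromosome 19, 45824749 to 45858269) held 104, 109 and 110 reads in the OgaVav-Cre libraries against 3164, 2970 and 2736 in the wildtype libraries, a log2 fold change of -5.01 ± 0.17 (SE). Library totals were 25190298 to 27064389 reads in OgaVav-Cre and 19318056 to 21684561 in wildtype. All 12 LSK markers tested had reads in every library, Kit at 251 to 602 CPM (counts per 1000000 reads, with library sizes scaled by edgeR's TMM), and none of them had an unadjusted p below 0.05 between the genotypes. Their median log2 fold change was -0.22, with 8 of 12 lower. The summed level of the LSK markers was 2449, 2782 and 1467 CPM in the OgaVav-Cre libraries and 1889, 3050 and 2300 CPM in wildtype. It was thus lowest in the third OgaVav-Cre library and next lowest in the first wildtype library. Ly6a, which encodes the sort marker Sca-1, stood at 1.03 ± 0.46 (SE; unadjusted p = 0.0558, edgeR), and Runx1, at -0.20 ± 0.12 (SE), was lower without overlap. The third OgaVav-Cre library stood apart in the markers of lineage-positive cells: all 15 were above their own 6-library mean there, and their summed level was 3119 CPM, against 415 and 930 in the other OgaVav-Cre libraries and 608 to 1259 in wildtype. The part of these cells in the results was not tested beyond the values given without that library. The lineage markers were not at 0 elsewhere, apart from Ly6g in one wildtype library. The summed plasma cell markers followed another order, at 13318, 6409 and 2204 CPM in the OgaVav-Cre libraries against 3366, 8713 and 2234 CPM in wildtype. Of the plasma cell markers 13 of 14 were higher in OgaVav-Cre, with a median of 0.62, and of the lineage-positive markers 11 of 15, with a median of 0.61, and the libraries of the genotypes overlapped for each of them. Transcripts of Ighm, Igj and Igkc took 1.17% to 9.88% of the reads of a library. They stand here for the immunoglobulin share, and other immunoglobulin loci were not counted in it. In such sorted bulk samples, fewer cells of a type and less RNA per cell cannot be told apart.

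Most of the 39 genes were slightly higher in OgaVav-Cre LSK cells, none of them passed the adjusted test in edgeR (1, Npm3, did in DESeq2), and Npm3 had the largest log2 fold change of the members. The median log2 fold change of the members was 0.17, beside 0.00 over all loci tested, and 34 of 39 members lay above 0, beside a background of 50.5% of loci. An unadjusted p below 0.05 in edgeR's quasi-likelihood test was found for 6 members (15.4%), all of them higher (Npm3, Fbl, Gar1, Nhp2, Ncl and Nop58), against 4.38% of all loci higher and 6.27% lower. Adjusted p-values (edgeR, Benjamini-Hochberg over all loci) ran from 0.210 for Npm3 to 0.993 for Rrp1b, so no member met the cutoffs of the study, an adjusted p below 0.05 together with a log2 fold change above 1 or below -1, which 0.0318% of loci met. The 3 libraries of each genotype did not overlap for 5 members higher in OgaVav-Cre (Npm3, Fbl, Gar1, Ubtf and Wdr43) and for 1 lower (Nat10), beside 7.5% and 9.97% of all loci. The count of members above 0 depended on the scaling. On library totals alone, which put the median of all loci at -0.11, 25 members were above 0 and 14 below. That scaling put 36.1% of all loci above 0, and 32 members lay above the median of all loci.

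**Figure D1:**
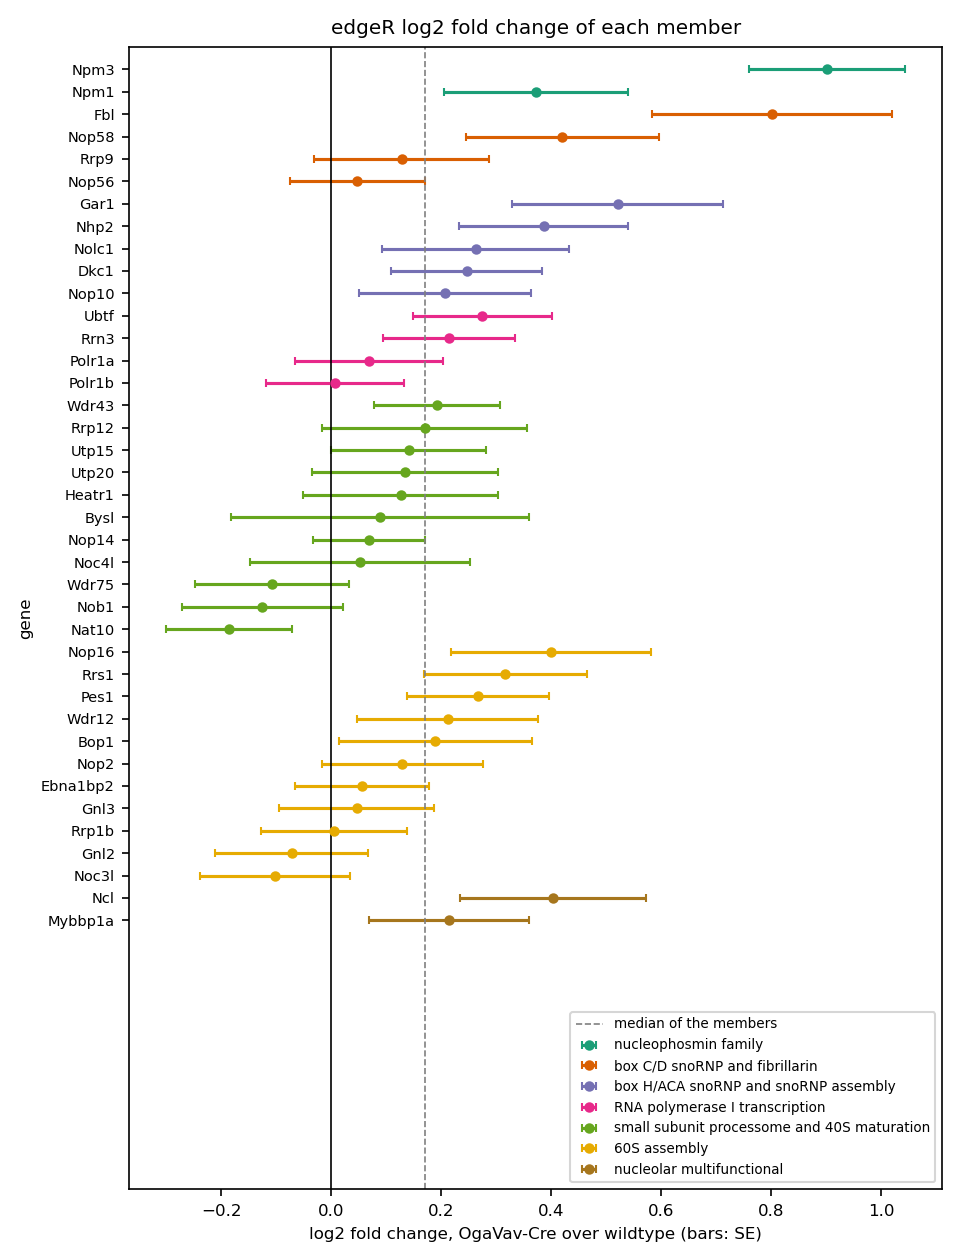
edgeR log2 fold change (x axis, OgaVav-Cre over wildtype) of the 39 members, grouped by role, with bars for the standard error and a dashed line at the members' median of 0.17. Npm3 and Fbl lie farthest to the right, and Nat10, Nob1, Wdr75, Noc3l and Gnl2 lie below 0.

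Npm3 and Npm1 belong to the nucleoplasmin family, and both encode nucleolar proteins. Npm3 lies on chromosome 19 (45822224 to 45824081, minus strand, 1187 exonic bases in 5 exons in the table) and held 1427, 1820 and 1572 reads in the OgaVav-Cre libraries against 831, 600 and 781 in the wildtype libraries. Scaled, these were 63.3, 72.0 and 57.4 CPM against 38.9, 31.1 and 33.0 CPM. Every OgaVav-Cre library lay above every wildtype library. The fold was 1.87, a log2 fold change of 0.90 ± 0.14 (SE), with an unadjusted p of 0.000259 and an adjusted p of 0.210 (edgeR), which ranked 27th of 22032 loci. DESeq2 gave a log2 fold change of 0.92 and an adjusted p of 0.000656, a test in which 0.772% of loci passed 0.05. Omitting any one library left Npm3 between 0.82 and 1.00 on the log2 scale, with an unadjusted p (edgeR) of at most 0.00192.

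Npm1, on chromosome 11 (33052287 to 33063206, minus strand), was far more abundant. Its libraries held 437, 484 and 407 CPM in OgaVav-Cre against 413, 327 and 286 CPM in wildtype. The groups overlapped, since the first wildtype library was above the third OgaVav-Cre library. Its log2 fold change was 0.37 ± 0.17 (SE; unadjusted p = 0.0575, adjusted p = 0.486, edgeR). Per length, Npm1 stood at 114 ± 21.4 RPKM in wildtype (SD, n = 3) and Npm3 at 25.8 ± 3.35. Npm3 reads amounted to 14.5%, 14.9% and 14.1% of Npm1 reads in the OgaVav-Cre libraries and to 9.44%, 9.50% and 11.6% in the wildtype libraries. The log2 ratio of Npm3 to Npm1 was thus 0.52 higher in OgaVav-Cre in mean, without overlap. An exact two-sided permutation test over the 6 libraries gave p = 0.1. Any ratio without overlap gives that value with 3 against 3, so the test adds nothing to the lack of overlap. The ratio was chosen after the rise of Npm3 had been seen. Npm2, the remaining family member and an oocyte gene, had at most 8 reads in a library and was not tested.

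**Figure D2:**
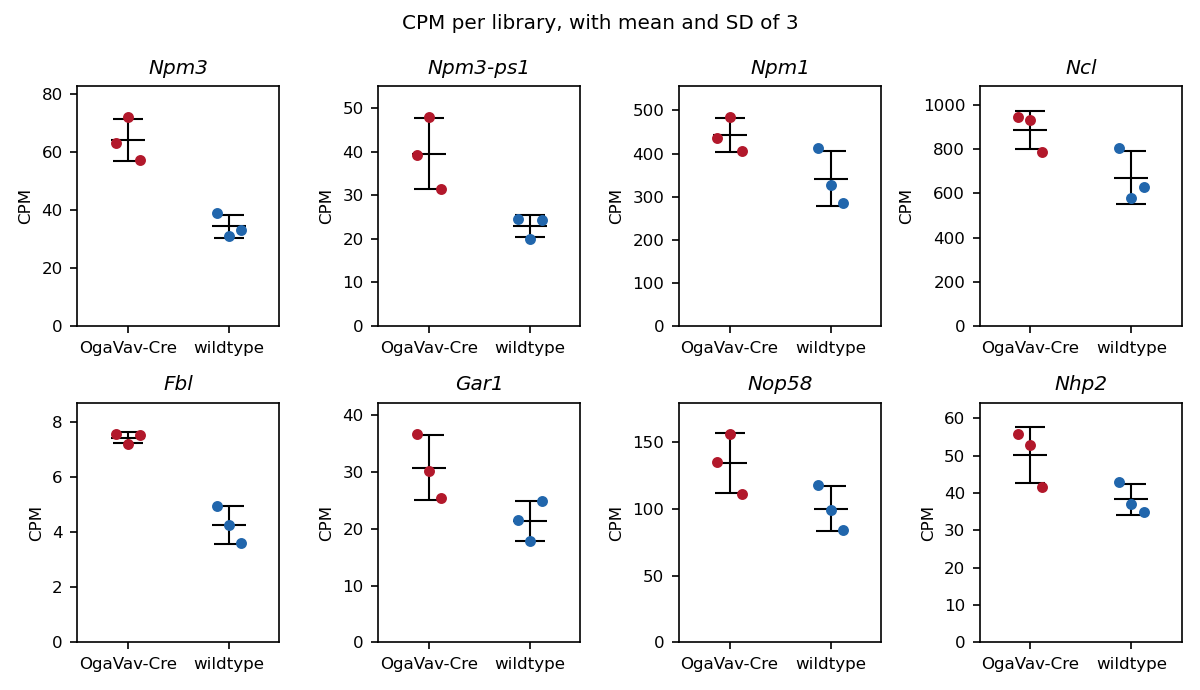
CPM (y axis, from 0) in each library (points) for the 6 members with an unadjusted p below 0.05, for Npm1 and for the Npm3 copy Npm3-ps1, with the mean and SD of 3 libraries per genotype. Npm3, Npm3-ps1, Fbl and Gar1 separate the genotypes completely, and the other 4 overlap.

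Reads of Npm3 cannot all be assigned to it. Of the 50-base windows in its annotated transcripts, the length of the study's reads, 57.8% also occur elsewhere in the mm9 genome, all of them in the processed copy Npm3-ps1 on chromosome 6 (85026135 to 85027120, plus strand). The coding sequence of transcript Npm3-001 and the copy share 522 of 528 bases. The stretch below, coding bases 226 to 345, is shown because it holds 3 of the 6 differences, in capitals, and shows how few bases can tell a read of the gene from a read of the copy, here read on the plus strand at chr6:85026411-85026530.
Npm3: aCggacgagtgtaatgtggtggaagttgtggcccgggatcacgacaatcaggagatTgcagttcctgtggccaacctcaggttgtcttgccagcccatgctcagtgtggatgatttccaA
Npm3-ps1: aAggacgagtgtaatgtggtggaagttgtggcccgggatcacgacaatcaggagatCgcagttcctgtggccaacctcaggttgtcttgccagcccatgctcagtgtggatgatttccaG

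The Npm3-ps1 locus held 888, 1212 and 863 reads in OgaVav-Cre against 526, 386 and 576 in wildtype, again without overlap, with a log2 fold change of 0.78 ± 0.19 (SE; unadjusted p = 0.00315, edgeR). Summed over both loci, the level was 104 ± 15.6 CPM in OgaVav-Cre and 57.4 ± 6.22 CPM in wildtype (SD, n = 3), a log2 fold change of 0.86 ± 0.15 (SE; unadjusted p = 0.000497, adjusted p = 0.261, edgeR). The sum thus differed by nearly as much as the gene alone, and which of the loci was transcribed cannot be told apart from these reads.

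Npm3 follows Oga head to tail on the minus strand, with 667 bases between the end of Oga and the start of Npm3. The 250 bases before Npm3 in mm9 (chr19:45824082-45824331, minus strand) are shown because they lie in that gap and so beside the altered allele, with one match to CCGGAA, the core of ETS factor motifs, in capitals.
Npm3 upstream: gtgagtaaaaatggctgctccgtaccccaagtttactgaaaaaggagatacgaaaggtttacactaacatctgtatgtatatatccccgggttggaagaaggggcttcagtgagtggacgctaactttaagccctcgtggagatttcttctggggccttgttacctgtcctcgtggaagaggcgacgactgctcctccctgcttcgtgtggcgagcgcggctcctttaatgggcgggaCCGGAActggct

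This motif was looked for on both strands of the 250 bases before each locus, after these sequences had been seen. It was found for 12 of 39 members, or 30.8%, and for 15.3% of 22018 loci tested. CACGTG, the E-box bound by MYC and related factors, was found for 2 members (Nop2 and Rrn3), or 5.13%, and for 6.46% of those loci. A letter match is a description of the sequence and not a binding site. Myc itself was at 243 ± 49.5 CPM in OgaVav-Cre and 247 ± 13.9 CPM in wildtype (SD, n = 3), a log2 fold change of -0.02 ± 0.17 (SE).

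A plus-strand locus that is also listed as Mgea5 (45823998 to 45826800), with the coordinates of a GENCODE antisense transcript (Gm15491), overlaps the first 84 bases of Npm3 and part of the deleted Oga locus. Since the counting is not stated to use strand, its reads and those of Oga cannot be told apart. It held 112, 123 and 127 reads in OgaVav-Cre against 481, 447 and 392 in wildtype, lower where Npm3 was higher. Of 11 tested loci within 250 kb of Oga that do not overlap it, 8 were higher in OgaVav-Cre, Npm3 among them, and 3 lower. Over all loci 50.5% were above 0. Apart from Npm3, their log2 fold changes ran from -0.66 to 0.44, and the one with an unadjusted p below 0.05 was Dpcd (0.40 ± 0.16, SE; adjusted p = 0.449, edgeR). Besides Npm3, the libraries did not overlap upward for Dpcd, Hps6 (0.35 ± 0.17, SE) and 9130011E15Rik (0.29 ± 0.16, SE), beside 7.5% of all loci. None of these neighbours was lower without overlap. Nolc1, which encodes the snoRNP chaperone Nopp140, is the next member on this chromosome, 292 kb before the 5' end of Oga (46150353 to 46160020, plus strand). Its log2 fold change was 0.26 ± 0.17 (SE), from 108, 104 and 93.3 CPM in OgaVav-Cre against 104, 67.3 and 83.7 CPM in wildtype, with overlap. The altered allele and the loss of O-GlcNAcase are present in the same mice, so an effect in cis on Npm3 and an effect of the missing enzyme cannot be told apart.

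**Figure D3:**
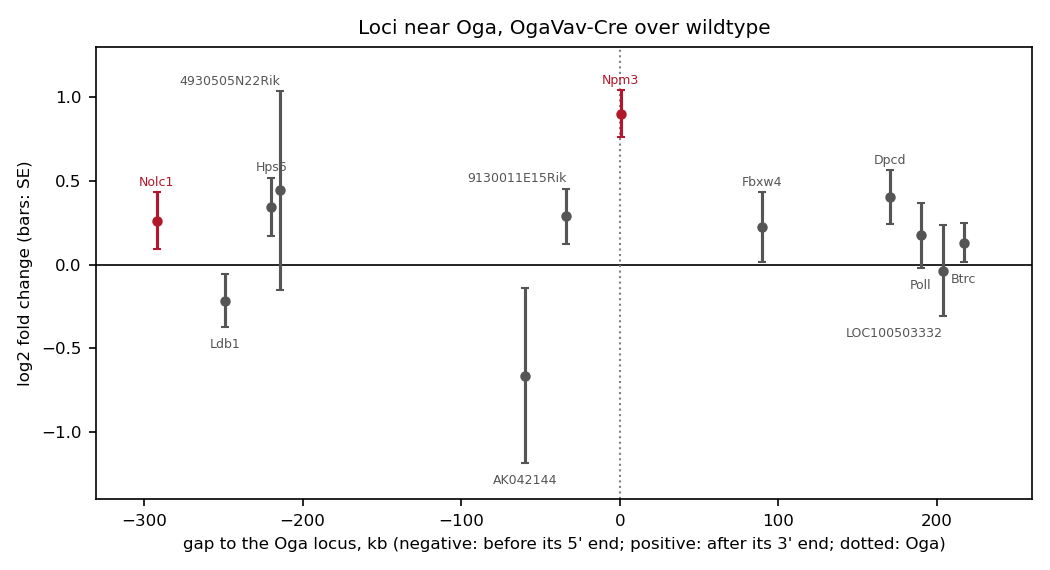
log2 fold change with standard error (y axis) against the gap to the Oga locus in kb (x axis) for the 11 tested loci within 250 kb and for Nolc1; members are red and other loci grey. Npm3, 0.667 kb after the end of Oga, stands at 0.90, and no other locus exceeds 0.44.

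The box C/D snoRNPs guide 2'-O-methylation of ribosomal RNA. Their methyltransferase fibrillarin, encoded by Fbl, had the second largest difference among the members, with 7.58, 7.20 and 7.55 CPM in OgaVav-Cre against 4.97, 4.25 and 3.60 CPM in wildtype. The groups did not overlap, and the log2 fold change was 0.80 ± 0.22 (SE; unadjusted p = 0.00673, adjusted p = 0.410, edgeR). These values rest on 82 to 207 reads per library, the fewest of any member. Of the 50-base windows of Fbl, 84.4% have an exact match elsewhere, and a copy on chromosome 17 (6121094 to 6122225, minus strand) held 3024 to 3722 reads in OgaVav-Cre and 1750 to 2344 in wildtype. The locus named Fbl thus held 4.93% of the reads of both, and their sum gave a smaller log2 fold change of 0.50 ± 0.16 (SE; unadjusted p = 0.0134, edgeR). A further run of 61 shared windows on chromosome 13 overlaps loci too long for the rule used, so it is not in the sum. The shorter of these loci, Gm6211, held 270 to 354 reads in OgaVav-Cre and 141 to 185 in wildtype.

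Nop58, a scaffold of the same particles, had 135, 156 and 111 CPM against 117, 99.1 and 84.1 CPM. The lowest OgaVav-Cre library lay among the wildtype values, and the log2 fold change was 0.42 ± 0.18 (SE; unadjusted p = 0.0447, edgeR). Nop56, its partner in the scaffold, differed little, at 117 ± 11.1 against 113 ± 7.71 CPM (SD, n = 3), a log2 fold change of 0.05 ± 0.12 (SE). Rrp9, a protein of the U3 particle, stood at 0.13 ± 0.16 (SE).

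All 5 genes of the box H/ACA snoRNPs and their assembly lay above 0, with a median log2 fold change of 0.26. These particles guide pseudouridylation, and their core proteins are also bound to telomerase RNA. Gar1, a core protein, had 36.8, 30.2 and 25.4 CPM in OgaVav-Cre against 21.6, 17.8 and 24.8 CPM in wildtype. The groups did not overlap, by a margin of under 1 CPM, and the log2 fold change was 0.52 ± 0.19 (SE; unadjusted p = 0.0273, edgeR). Nhp2, another core protein, had 55.8, 52.7 and 41.6 CPM against 42.9, 36.9 and 35.0 CPM, a log2 fold change of 0.39 ± 0.15 (SE; unadjusted p = 0.0368, edgeR). The third OgaVav-Cre library again lay within the wildtype range. Dkc1, the pseudouridine synthase dyskerin, stood at 0.25 ± 0.14 (SE) and Nop10 at 0.21 ± 0.16 (SE).

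The RNA polymerase I genes lay from 0.01 to 0.28. Ubtf encodes the factor that binds ribosomal DNA along its length, and its libraries did not overlap, with 185, 170 and 184 CPM in OgaVav-Cre against 167, 135 and 143 CPM in wildtype. Its log2 fold change was 0.28 ± 0.13 (SE; unadjusted p = 0.0635, edgeR). Rrn3, the factor that makes the polymerase competent to initiate, was at 0.21 ± 0.12 (SE). The polymerase's catalytic subunits Polr1a and Polr1b were at 0.07 ± 0.14 and 0.01 ± 0.13 (SE), well within the spread between libraries.

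Small subunit processome and 40S maturation genes had the lowest median of the roles with more than 2 genes, 0.09 over 11 genes, and none had an unadjusted p below 0.05. Wdr43, a subunit of the t-UTP complex, was the one gene of this role whose libraries did not overlap upward, with 112, 113 and 102 CPM in OgaVav-Cre against 102, 96.8 and 87.1 CPM in wildtype (0.19 ± 0.12, SE), the nearest libraries of the genotypes being equal at this rounding. Nat10, which acetylates 18S rRNA, did not overlap downward, with 47.0, 43.9 and 42.0 CPM against 54.0, 49.3 and 47.8 CPM (-0.19 ± 0.11, SE; unadjusted p = 0.144, edgeR). Nob1, the nuclease that makes the 3' end of 18S rRNA, stood at -0.13 ± 0.15 and Wdr75 at -0.11 ± 0.14 (SE). Bysl, a 40S assembly factor, had the largest standard error of the members (0.09 ± 0.27). It ran from 38.3 to 57.8 CPM in OgaVav-Cre and from 30.0 to 62.5 CPM in wildtype, and the highest and the lowest level were both in wildtype libraries. Utp15, Utp20, Heatr1, Nop14, Noc4l and Rrp12 ranged from 0.05 to 0.17, each with overlap.

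Among the 60S assembly genes, 9 of 11 lay above 0, with a median of 0.13 and no unadjusted p below 0.05. Nop16, a pre-60S factor, had the largest value, 0.40 ± 0.18 (SE; unadjusted p = 0.0606, edgeR), from 38.4, 42.7 and 29.5 CPM against 32.1, 27.5 and 24.2 CPM. Rrs1, which helps to bring the 5S particle into the pre-60S, was at 0.32 ± 0.15 (SE). The PeBoW complex, which is needed to process the 32S precursor, consists of Pes1, Bop1 and Wdr12, and these stood at 0.27 ± 0.13, 0.19 ± 0.18 and 0.21 ± 0.16 (SE). Nop2, an rRNA methyltransferase, was at 0.13 ± 0.15 (SE). Gnl3, which encodes the stem cell protein nucleostemin, had 102, 94.7 and 85.2 CPM against 100, 95.7 and 76.8 CPM, a log2 fold change of 0.05 ± 0.14 (SE). Ebna1bp2 and Rrp1b were at 0.06 and 0.01, and Gnl2 and Noc3l were at -0.07 and -0.10.

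Nucleolin, encoded by Ncl, takes part in rRNA transcription and early processing and had the most reads of any member. Its libraries held 944, 931 and 787 CPM in OgaVav-Cre against 806, 580 and 628 CPM in wildtype. The first wildtype library lay above the third OgaVav-Cre library, and the log2 fold change was 0.40 ± 0.17 (SE; unadjusted p = 0.0446, adjusted p = 0.460, edgeR). Mybbp1a, which binds the ribosomal DNA and restrains polymerase I, stood at 0.21 ± 0.15 (SE).

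The members varied together across libraries as well as between genotypes. Taking each gene's log2 CPM minus its mean over the 6 libraries, the median of the members was 0.16, 0.09 and -0.03 in the OgaVav-Cre libraries and 0.07, -0.17 and -0.22 in the wildtype libraries. The genotypes overlapped by this measure, because the first wildtype library was above the third OgaVav-Cre library. The highest level of a member was in the first OgaVav-Cre library for 17 genes, in the second for 10 and in the first wildtype library for 9. The lowest was in the third wildtype library for 18 genes and in the second for 13. Neither these counts nor the library medians were taken over all loci, so whether the pattern is particular to the members was not tested. Without the first wildtype library the median log2 fold change of the members was 0.30 and 16 (41.0%) had an unadjusted p below 0.05 (edgeR), beside 14.5% of all loci in that fit. Without the second wildtype library the median was 0.13 and 2 members did (5.13%), Npm3 and Fbl, no more often than the 7.51% of all loci. Without the third OgaVav-Cre library, the one with the most lineage-positive marker reads, the median was 0.20 and 9 members (23.1%) had an unadjusted p below 0.05, beside 14.3% of all loci. With the immunoglobulin share of each library as a covariate, the median was 0.18 and 30 members lay above 0, beside 50.1% of all loci. In that fit 2 members (5.13%) had an unadjusted p below 0.05, again Npm3 and Fbl, which is under the 9.08% of all loci. Npm3 was at 0.91 in that fit.

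**Figure D4:**
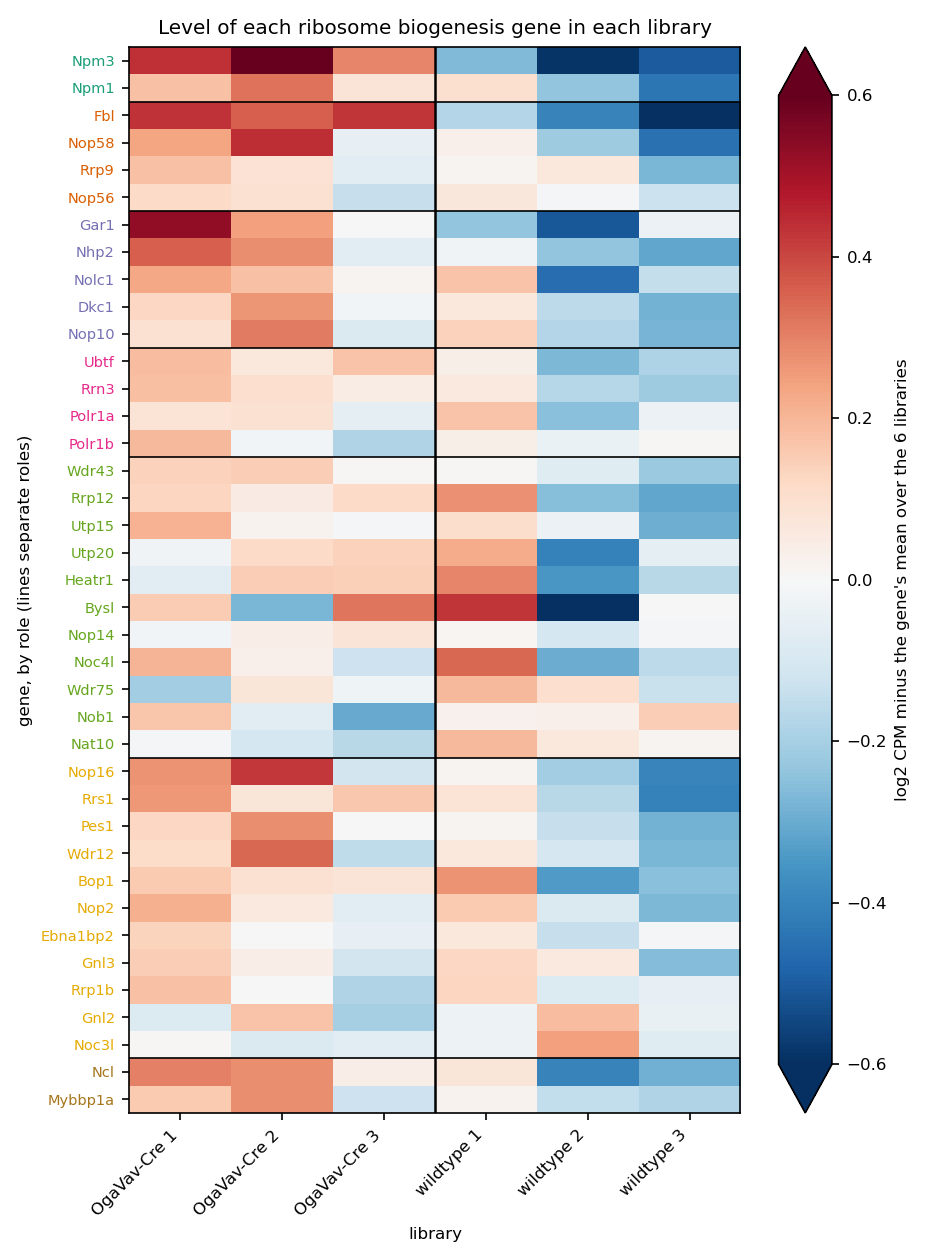
Level of each of the 39 members (rows, grouped by role) in each of the 6 libraries (columns), as log2 CPM minus the gene's mean over the libraries; red is above and blue below that mean. The first and second OgaVav-Cre libraries and the first wildtype library are mostly red, and wildtype libraries 2 and 3 are mostly blue.

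Short loci were higher in OgaVav-Cre than long ones over the whole table, and the members followed this. The median log2 fold change of all loci went from 0.18 for loci of up to 1000 bases to -0.05 for loci over 8000 bases. Across the 39 members, Spearman's rho between log2 fold change and length was -0.41, beside -0.14 across all loci tested (genes are not independent replicates). The 5 members of over 1000 and up to 2000 bases (Npm3, Gar1, Nhp2, Nop10 and Nop16) had a median of 0.40, beside 0.03 for all loci of that length. With each library's trend over length taken out as an offset, the members' median was 0.20, beside 0.03 for all loci. Of the members 34 lay above 0, beside 53.6% of all loci. In that fit 10 members (25.6%) had an unadjusted p below 0.05, beside 9.99% of all loci, while Npm3 was at 0.87 (unadjusted p = 0.000233, edgeR) and Npm1 at 0.42.

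**Figure D5:**
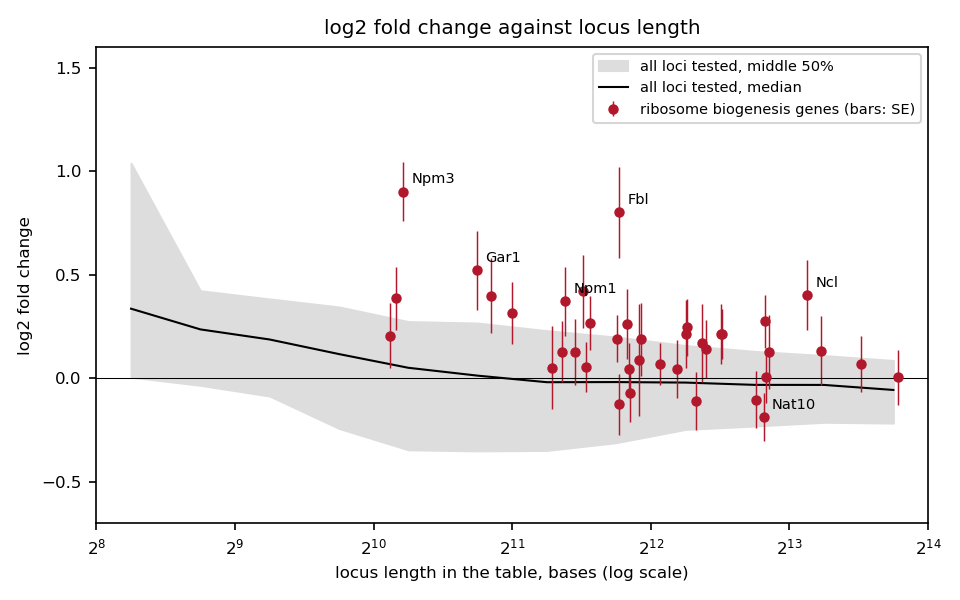
log2 fold change (y axis) against locus length in bases (x axis, log scale) for the 39 members (red, bars for the standard error) over the median and the middle 50% of all loci tested. The line of all loci descends with length, and Npm3 at 0.90 and Fbl at 0.80 lie farthest above the grey band.

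Sequence shared with copies touched few other members. For 34 of 39 members, under 20% of the 50-base windows occurred elsewhere, and these 34 had a median log2 fold change of 0.14 with 29 above 0. The exceptions besides Npm3 and Fbl were Npm1 (46.3%), Nop56 (30.9%) and Pes1 (23.1%). Npm1 with its 5 listed copies summed gave 0.38 ± 0.17 (SE), and Ncl with its copy 0.41 ± 0.17 (SE), both close to the values of the genes alone. Copies of Npm1 on chromosome 10, with 482 and 284 shared windows, are not listed as loci and so are not in its sum. Of the members, 23 overlap at least one other listed locus, and the counting is not stated to use strand, so reads in the overlaps cannot be assigned to one gene. Snord11 and Snord70, small nucleolar RNAs within Nop58, held no read in any library.

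Other genes of the pathway were read in the same way. Of 114 further ribosome biogenesis genes, 112 were tested. Their median log2 fold change was 0.13, and 84 lay above 0 and 28 below. At an unadjusted p below 0.05, 5 were higher (4.46%) and 2 lower, beside 4.38% and 6.27% of all loci. The libraries did not overlap upward for 16 of them (14.3%), beside 7.5% of all loci, and downward for 5, beside 9.97% of all loci. The 5 higher genes at that p were the 40S factors Aatf (0.41 ± 0.15, SE) and Ltv1 (0.44 ± 0.18), the exosome subunit Exosc5 (0.42 ± 0.17), Pelp1 (0.36 ± 0.15) and the nucleolar protein Surf6 (0.36 ± 0.15). The lower ones were Dimt1, the 18S rRNA dimethyltransferase (-0.42 ± 0.16, SE), and Nvl, an ATPase of 60S maturation (-0.28 ± 0.11). Their adjusted p-values (edgeR) ran from 0.437 to 0.456. The cytosolic ribosomal protein genes, the products that these factors assemble, had a median of 0.33 over 77 tested. Above 0 lay 69 (89.6%), beside 50.5% of all loci. Of the 77 tested, 29 (37.7%) had an unadjusted p below 0.05, all higher, and 33 (42.9%) did not overlap upward. The shares of all loci were 4.38% and 7.5%. None of these genes had an adjusted p below 0.05 (lowest 0.382, edgeR). They are short, with a median length of 1503 bases, and many have processed copies, so length and shared sequence differ between this list and the members. With the length offset their median was 0.30, beside 0.03 for all loci.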

How the data were processed

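RNA-seq of LSK cells from 3 OgaVav-Cre and 3 wildtype mice was used as one table of the whole series, deposited by the authors, with raw read counts and RPKM per locus (CASAVA 1.8.2, per the submitters' processing notes; alignment to mm9 and counting with Genomatix). RPKM values served for levels per length and for 2 alternatives. The authors' columns of fold changes and p-values and 6 per-sample columns of normalized expression were not used.

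Counts were tested with edgeR 4.0.16 (R 4.3.3; TMM scaling, filterByExpr, quasi-likelihood F test, Benjamini-Hochberg over 22032 loci). The biological coefficient of variation was 0.308, and totals of 19318056 to 27064389 reads put 3 reads at 0.109 to 0.156 CPM. Standard errors are the absolute log2 fold change divided by the square root of F. The fits were also run on simulated counts with less variation between libraries than these data have, so their error rates here are not known from that run. Alternatives used DESeq2 1.42.0, limma 3.58.1 and other settings given in the closing section. Shared sequence was found as exact 50-base matches of transcripts in mm9, and a copy was a run of at least 50 such windows. The copies summed were listed loci on the strand of the run and at most 2 times its length. Gene structure was taken from GENCODE annotation of the same build.

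Members and lists were chosen with earlier results of these data known, among them the rise of Npm3. All members are named. Of other genes, up to 5 further ribosome biogenesis genes with the smallest p in each direction, loci within 250 kb of Oga, Npm2 and Myc could be named. The ratio of Npm3 to Npm1, the length offset and the summed copies were added after the data were seen. Replicates are separate mice.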

Additional observations from a re-analysis of the deposited data

How the results depend on the processing

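The 3 libraries per genotype, their differing content of lineage-positive and plasma cell transcripts and the trend over locus length limit these values, and none of the alternatives can separate an effect at the Oga locus from the loss of the enzyme. Of 741 log2 fold changes of single members under 19 alternatives, 695 kept their direction, 27 of 39 members did so in every one, and the 12 others had main values of at most 0.13.

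Npm3 stayed above 0 in every alternative. Its adjusted p passed 0.05 with DESeq2 alone (log2 fold change 0.92, so below the cutoff of 1), which made it the 1 member that passed, and it was 0.077 to 0.862 elsewhere. Npm3 ranged from 0.82 to 1.00 and Npm1 from 0.26 to 0.53 over the omissions of one library. Over those omissions the members' median ranged from 0.11 to 0.30. The members above 0 ranged from 30 to 34, beside 48.3% to 50.7% of all loci. Members with an unadjusted p below 0.05 ranged from 2 to 16 (5.13% to 41.0%), beside 5.39% to 14.5% of all loci. Members with an adjusted p below 0.05 stayed at 0, and calls over all loci were 0 to 3 higher and 3 to 6 lower. The median moved most without the first wildtype library (0.30).

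Members with an unadjusted p below 0.05 numbered 6 (15.4%) in the main fit, beside 10.6% of all loci. On library totals there were 3 (7.69%), 2 of them higher, beside 11.8% of all loci. With RPKM (pseudocount 0.1 or 1) there were 3 (7.69%), beside 10.8% and 10.9%. The immunoglobulin covariate gave 2 (5.13%), beside 9.08%, and the length offset 10 (25.6%), beside 9.99%. Calls over all loci, 1 higher and 6 lower, became 4 and 17 with no filter, 35 and 82 with DESeq2, and 2 higher with the immunoglobulin covariate. There was 0 higher on library totals, with at least 10 reads in every library, with limma-voom and with RPKM. The cause was not tested.

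With the replicate number as a replicate block, 10 members (25.6%) had an unadjusted p below 0.05, beside 12.4% of all loci (10.6% without the block), and 2 loci were called higher. Deviations of same-numbered libraries correlated at -0.081, 0.260 and 0.316. Replicates 2 and 3 of OgaVav-Cre correlated best with the same-numbered wildtype library, and replicate 1 with wildtype replicate 2 (0.206). With 3 libraries per genotype these correlations cannot decide whether the numbers pair the mice.

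Reversed on library totals were Nop56 (-0.074), Polr1a (-0.055), Polr1b (-0.12), Nop14 (-0.050), Noc4l (-0.074), Bysl (-0.035), Gnl3 (-0.073), Rrp1b (-0.12) and Ebna1bp2 (-0.068). With RPKM and a pseudocount of 0.1 or 1 these were Nop56 (-0.023 and -0.022), Polr1b (-0.069 and -0.062), Gnl3 (-0.017 and -0.016), Rrp1b (-0.066 and -0.053) and Ebna1bp2 (-0.012 and -0.011). The immunoglobulin covariate reversed Nop56 (-0.0034), Polr1b (-0.068), Gnl3 (-0.021) and Rrp1b (-0.060). At least 10 reads in every library gave -0.00037 for Polr1b and -0.0016 for Rrp1b, limma-voom -0.0038 and -0.0021, and the replicate block -0.0014 for Polr1b. Over the omissions of one library the ranges that crossed 0 were -0.0047 to 0.13 for Nop56, -0.025 to 0.18 for Polr1a, -0.095 to 0.094 for Polr1b, -0.0058 to 0.30 for Utp20, -0.066 to 0.27 for Noc4l, -0.14 to 0.37 for Bysl, -0.16 to 0.0081 for Noc3l, -0.18 to 0.012 for Gnl2, -0.064 to 0.12 for Gnl3 and -0.086 to 0.092 for Rrp1b.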
